A study of Cairina moschata with 9 samples.

Results

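Of the 14814 genes measured in abdominal fat of the Muscovy duck (Cairina moschata), 192 stood higher in 66-week birds than in both younger ages while the younger ages lay close together. They were chosen by their values in FPKM, a measure of fragments corrected for transcript length and library size. Each had a mean of at least 1 FPKM, a value above 0 in all 9 libraries, and a 66-week mean at least 1.5 times both the 12-week and the 35-week mean. In each, the lowest 66-week library lay above the highest of the 6 others, and the 12-week and 35-week means were no more than 25% apart (higher over lower). Because the choice used the values of all 3 ages, the differences between ages in these genes are a description, and nothing is concluded from a test of them. The description "high only at 66 weeks" fits the ranks and not the levels, since all 192 genes were also above 0 at 12 and 35 weeks. They are called here the genes highest at 66 weeks.

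The libraries came from birds of 12, 35 and 66 weeks, with 3 birds of normal body weight killed at each age and 1 RNA library per bird. No treatment is named. Nothing is said in the labels about strain, sex or laying state. All libraries of an age carry the same lane code (3 at 12 weeks, 4 at 35 weeks and 5 at 66 weeks), so age and sequencing lane cannot be told apart. The number of genes at 1 FPKM or more was 10814 to 11291 per library, and the depth in reads is not given. The sum over all genes differed between libraries. In units of 1000 FPKM it was 1255, 1468 and 1214 at 12 weeks. It was 1717, 1599 and 1503 at 35 weeks, and 1885, 1887 and 2145 at 66 weeks. Median-ratio size factors, which compare the typical gene between libraries, were 0.973 to 1.029 over the 9 libraries.

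Abdominal fat is a main store of triglyceride in poultry. In birds most fatty acids are made in the liver and carried to the fat cells in lipoproteins, and the depot is drawn on and refilled as growth, laying and moult change the demand. It also holds vessels, connective tissue, immune cells and blood, whose red cells are nucleated in birds. In such whole tissue, more cells of a type and more RNA per cell cannot be told apart. The table gives Ensembl-type gene identifiers with no gene names, so functions, pathways and cell types could not be assigned to the 192 genes. For the same reason the labelled tissue could not be checked against its markers. Whether the identifiers, which start with ENSAPLG, are gene models of the Muscovy duck or of another species is not stated and was not checked. The identifiers of the 2 genes with the largest ratio are printed, and the others are described by rank and level.

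The conditions of the choice left few genes at each step. Of 11491 genes averaging 1 FPKM or more, 10825 were above 0 in all 9 libraries. A 66-week mean at least 1.5 times both others was found in 674 of these, and in 327 of the 674 all 66-week birds also lay above all 6 others. The closeness of the 12-week and 35-week means then left 192, which is 1.77% of the 10825. Of the 135 genes lost at this last step, the 12-week mean was the higher in 74 and the 35-week mean in 61. A further 158 genes met every condition but the separation of the birds, and 387 met every condition but the 1.5-fold difference. Over the same 10825 genes, all 66-week birds lay above the 6 others, at any fold, in 7.29%.

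The edges of the group were not sharp. The 5 genes just inside the fold condition had ratios of 1.501 to 1.509, and the 5 just outside had 1.494 to 1.496. At the edge of the separation, a gene with a lowest 66-week value of 56.6 FPKM was kept against 56.5 FPKM in the highest of the other birds. The nearest gene left out there had 4.56 FPKM against 4.59 FPKM. At the edge of the closeness condition, the last gene kept had 12-week and 35-week means 1.248-fold apart, and the first left out had means 1.251-fold apart.

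Most of the 192 genes differed modestly between ages. The ratio of the 66-week mean to the higher of the other means had a median of 1.76, against 0.942 over the 10825 genes. The rule sets the first at 1.5 or more, and dividing by the higher of 2 means lowers the second. Against the 12-week and the 35-week mean alone, the medians over the 10825 genes were 1.02 and 1.02. Among the 192 genes the ratio to the higher mean lay between 1.5 and 2 in 135, between 2 and 3 in 49 and at 3 or more in 8. The median of the 192 genes was 21.0, 21.4 and 17.2 FPKM in the 12-week birds, 24.3, 19.5 and 17.3 FPKM in the 35-week birds, and 39.1, 41.6 and 41.1 FPKM in the 66-week birds. The median of all 10825 genes was between 17.0 and 18.0 FPKM in every library. Between the younger ages, the 35-week mean was above the 12-week mean in 93 of the 192 genes and below it in 99.

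**Figure D1:**
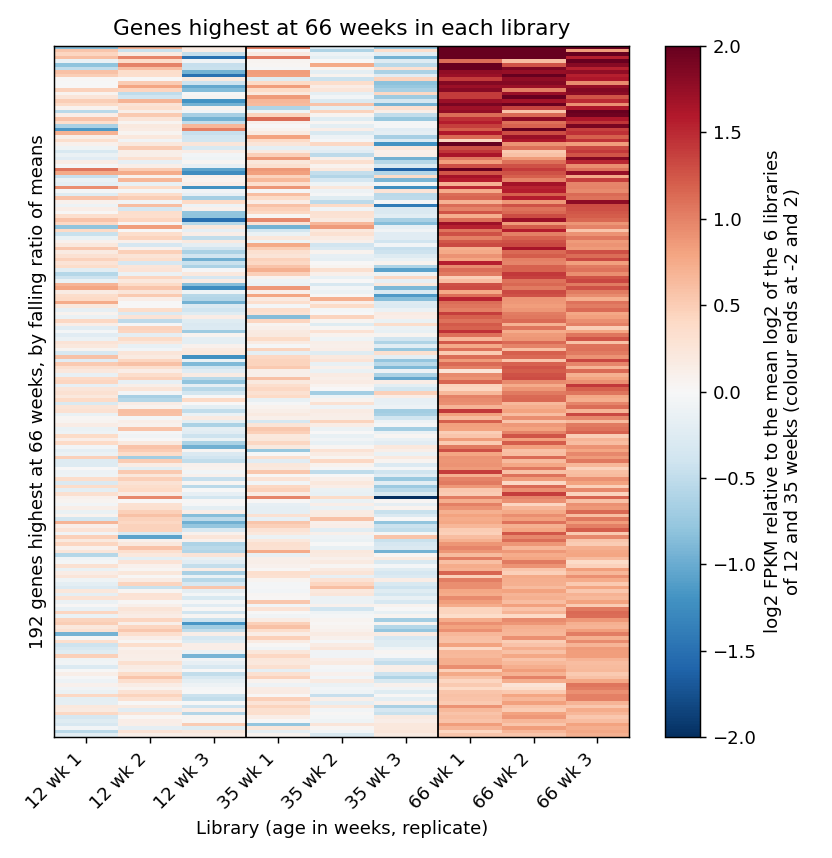
Each row is 1 of the 192 genes, ordered by falling ratio of means, and each column a library. Colour gives log2 FPKM relative to the gene's mean log2 value over the 6 libraries of 12 and 35 weeks; all 66-week columns are above this mean in every row, as the choice of genes requires, and 12-week replicate 3 and 35-week replicate 3 are below it in many rows.

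The gene with the largest ratio, ENSAPLG00000007849, had 153, 457 and 319.6 FPKM in the 12-week birds, 569, 235 and 164 FPKM in the 35-week birds, and 1977, 3423 and 1643 FPKM in the 66-week birds. All 66-week birds stood far above the rest, and the lowest of them was at 2.89 times the highest of the 6 others. Its means were 309.9 ± 152, 322 ± 216 and 2348 ± 946 FPKM at 12, 35 and 66 weeks (SD, n = 3 each), a ratio of 7.28. The spread among birds of 1 age was wide in this gene, with a coefficient of variation (SD over mean) of 49.1%, 67.1% and 40.3% at the 3 ages.

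ENSAPLG00000013930, the second by ratio at 6.63, was a low gene. It had 1.42, 0.709 and 1.07 FPKM at 12 weeks, 0.968, 0.640 and 1.23 FPKM at 35 weeks, and 13.6, 5.83 and 1.75 FPKM at 66 weeks. The 3 old birds were 7.80-fold apart, and replicate 3 was only 1.23 times the highest younger bird. Its mean of 7.07 ± 6.03 FPKM at 66 weeks (SD, n = 3) therefore rested mainly on replicates 1 and 2.

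The third gene by ratio had the widest gap between the ages of all 192. Its values were 11.2, 9.38 and 5.94 FPKM at 12 weeks, 9.36, 7.78 and 7.21 FPKM at 35 weeks, and 44.5, 64.6 and 39.4 FPKM at 66 weeks. The lowest 66-week bird was at 3.51 times the highest of the others. The fourth gene showed a wider scatter, with 50.9, 66.0 and 11.9 FPKM at 12 weeks, 68.1, 29.3 and 17.4 FPKM at 35 weeks, and 334, 242 and 98.1 FPKM at 66 weeks. In this gene replicate 3 was the lowest bird at every age, though the labels pair no birds by replicate number.

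In the fifth gene by ratio 1 bird carried much of the difference, and in the sixth 1 bird stood out to a lesser degree. The fifth had 1.98, 2.76 and 2.03 FPKM at 12 weeks, 2.21, 2.15 and 1.79 FPKM at 35 weeks, and 4.63, 3.28 and 22.6 FPKM at 66 weeks. The sixth had 0.533, 1.85 and 0.674 FPKM at 12 weeks, 0.952, 1.57 and 0.642 FPKM at 35 weeks, and 6.02, 2.22 and 3.29 FPKM at 66 weeks. The lowest 66-week bird was at 1.19 and 1.20 times the highest of the others in these genes. Over the 192 genes such cases were few: the highest 66-week bird was more than 2 times the middle one in 3 genes, and the 3 old birds were within 1.5-fold of each other in 127.

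The genes ranked 7 to 10 by ratio spanned a wide range of levels with clear gaps. The seventh had 42.0, 89.7 and 43.7 FPKM at 12 weeks, 58.4, 62.0 and 73.3 FPKM at 35 weeks, and 262, 216 and 172 FPKM at 66 weeks. The eighth had 1666, 1409 and 573 FPKM at 12 weeks, 1980.2, 974 and 714 FPKM at 35 weeks, and 3774, 3723 and 3777 FPKM at 66 weeks. Its old birds were nearly equal, with 3723 FPKM as the lowest and 3777 FPKM as the highest, while the younger birds differed among themselves by far more. The ninth had 2458, 2188 and 619 FPKM at 12 weeks, 3067, 1838 and 1489 FPKM at 35 weeks, and 5714, 7588 and 5128 FPKM at 66 weeks. The tenth had 17.3, 17.0 and 19.4 FPKM at 12 weeks, 14.4, 12.6 and 23.1 FPKM at 35 weeks, and 44.6, 58.2 and 52.0 FPKM at 66 weeks. The lowest 66-week bird was at 1.92, 1.88, 1.67 and 1.93 times the highest of the others in these 4 genes.

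**Figure D2:**
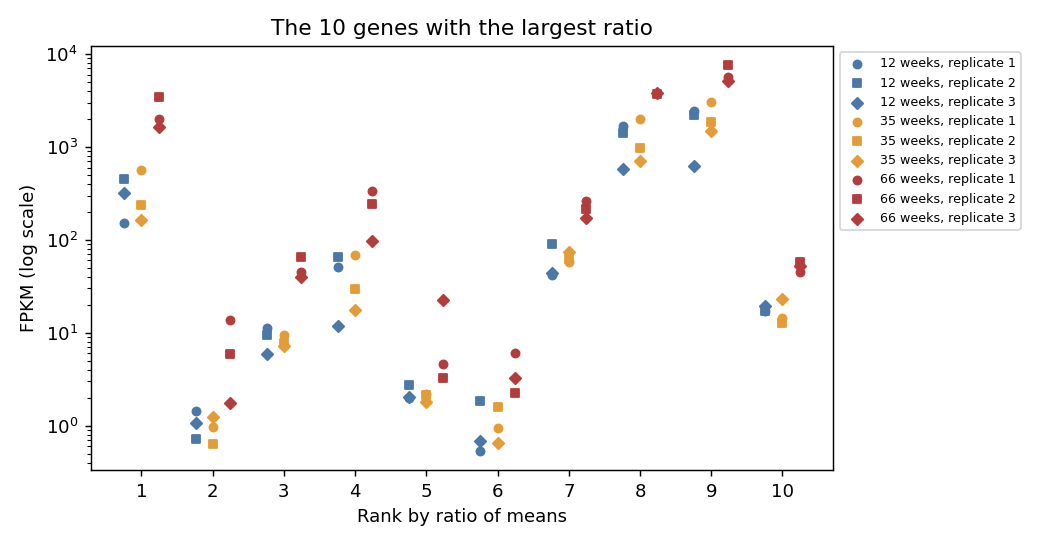
FPKM on a log scale in each library for the 10 genes with the largest ratio of means; colour gives the age and the marker shape the replicate. The 66-week birds lie above all others in every gene, by 1.19 times in the fifth and by 3.51 times in the third.

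The gap between the ages was narrow in most of the 192 genes. The lowest 66-week value had a median of 1.22 times the highest of the 6 others. It was at least 2 times as high in 3 genes, at least 1.5 times in 19 and at least 25% higher in 87, and under 1.1 times in 50. The 3 genes with the widest gap were the first, the third and one with 62.9, 75.9 and 62.8 FPKM at 12 weeks, 39.4, 52.4 and 75.04 FPKM at 35 weeks, and 195, 153 and 185 FPKM at 66 weeks. The highest of the 6 younger birds was a 12-week bird in 98 genes and a 35-week bird in 94.

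**Figure D3:**
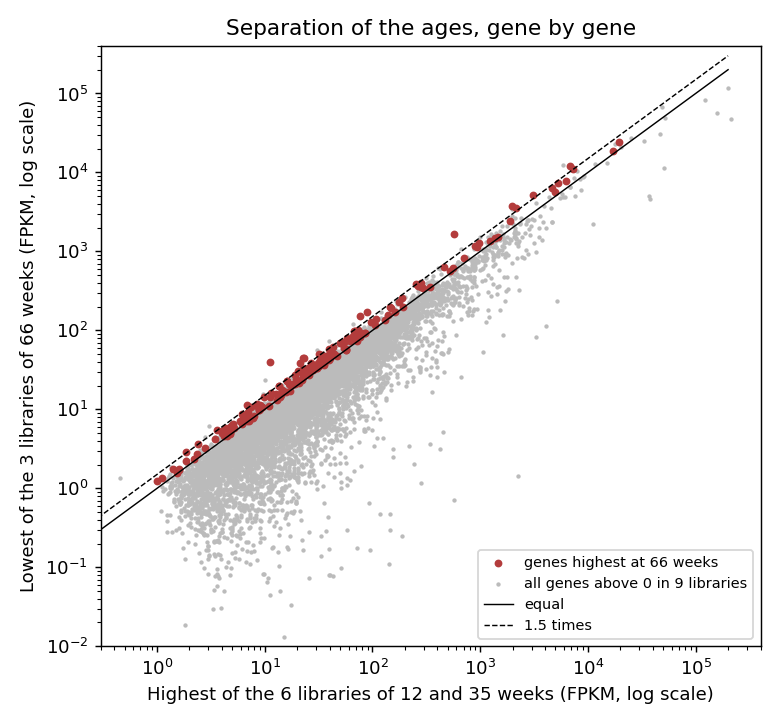
Each point is a gene above 0 in all 9 libraries with a mean of at least 1 FPKM; the y axis gives its lowest 66-week library and the x axis its highest library of 12 or 35 weeks, both in FPKM on log scales. Red points are the 192 genes; they lie above the line of equality by construction, and 19 of them reach the dashed line at 1.5 times.

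The 192 genes covered levels of 1.03 to 20188 FPKM (mean of the 9 libraries), with a median of 27.5 FPKM against 18.0 FPKM over the 10825 genes. They made up 1.57% of the genes at 1 to 10 FPKM and 1.502% in the class from 10 to 100 FPKM, and 2.88% from 100 to 1000 FPKM. Of the 151 genes at 1000 FPKM or more, 16 were among them, which is 10.6%. The genes at this level were also shifted as a class: over all 151, the 66-week mean was at a median of 1.49 times the 12-week mean and 1.24 times the 35-week mean, where the medians over the 10825 genes were 1.02 and 1.02. By the mirror rule, for genes lowest at 66 weeks, 0 of the 151 genes qualified, against 199 of all 10825. FPKM is scaled by gene model length, and the lengths are not given, so a high value need not mean many fragments.

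The highest of the 192 genes had 16652, 14919 and 12398 FPKM at 12 weeks, 15684, 12789.7 and 19251 FPKM at 35 weeks, and 35188, 24462 and 30348 FPKM at 66 weeks. The next had 16215, 17042 and 14309 FPKM at 12 weeks, 14249.6, 14177 and 16350.0 FPKM at 35 weeks, and 22001, 18567 and 32315 FPKM at 66 weeks. The first of these was separated by 1.27 times and the second by 1.09 times. The third by level had 6009, 6848 and 1860.25 FPKM at 12 weeks, 6796, 3497 and 3363 FPKM at 35 weeks, and 14025, 13579.8 and 12059 FPKM at 66 weeks. Here the 66-week birds were close together, while 12-week replicate 3 stood far below the other 12-week birds.

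The 192 genes together held 5.79 ± 0.820%, 4.74 ± 0.501% and 8.11 ± 0.682% of the summed FPKM at 12, 35 and 66 weeks (SD, n = 3 each). Their sum was 76041 ± 12983, 76168 ± 9589 and 159598 ± 12982 FPKM at these ages. The 2 highest values of each library supplied 40.5 ± 2.90%, 40.7 ± 5.93% and 33.8 ± 3.94% of it, so the sum describes few genes. By the rule its 66-week mean is at least 1.5 times that of either younger age, so the difference in the sum is built in. The share is drawn from the same values.

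How firmly the high genes belonged to the group depended on the scaling between libraries. Quantile normalization, which gives all libraries the same distribution of values over genes above 0 in all 9, lowered the median ratio of the 16 genes at 1000 FPKM or more to 1.22, against 2.11 as deposited. Of these 16, 3 then still met the whole rule, and 6 had a ratio of at least 1.5. At 100 to 1000 FPKM 13 of 28 genes still met the rule, at 10 to 100 FPKM 76 of 94 and at 1 to 10 FPKM 38 of 54. In all, 190 of the 192 ratios stayed above 1, and 2 fell below it. With median-ratio size factors, 166 of the 192 met the rule, 15 of the 16 high genes among them. Whether the level class shift plays a part in the high genes was not tested. These scalings cannot decide it. Quantile normalization evens out the high values of all libraries whatever their source, and size factors compare the typical gene.

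**Figure D4:**
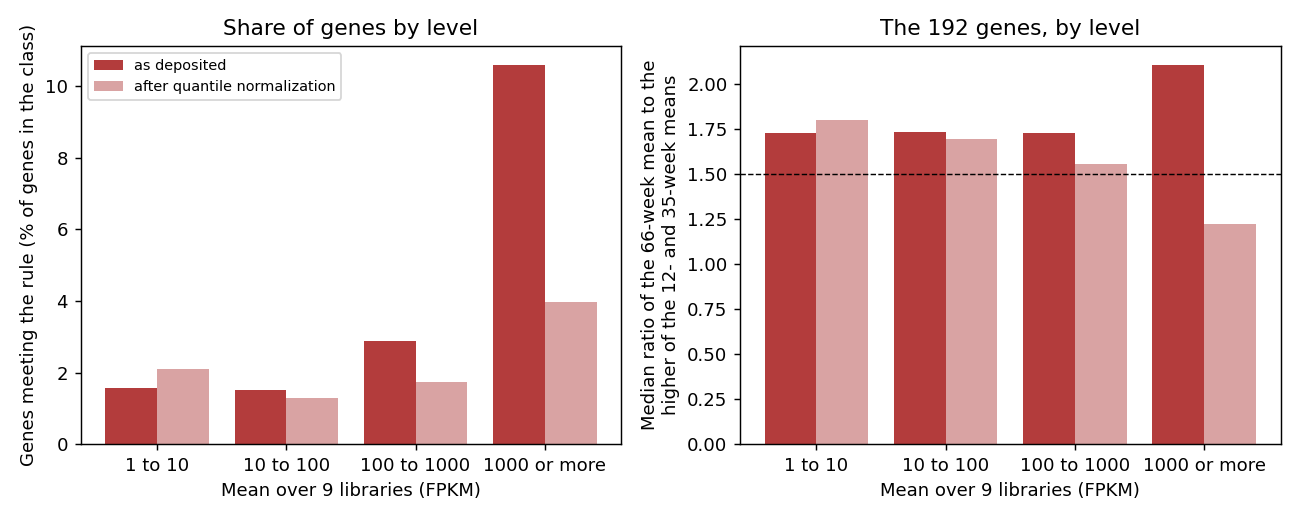
Left, the share of genes in each level class (mean FPKM over 9 libraries) that met the rule, as deposited and after quantile normalization; right, the median ratio of the 66-week mean to the higher of the other means over the 192 genes, with the 1.5-fold condition dashed. In the class of 1000 FPKM or more the share is 10.6% as deposited and 3.97% after quantile normalization, and the median ratio 2.11 and 1.22.

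Birds of 12 and 35 weeks differed in how far below the 66-week level these genes stood, in an order that many of the 192 genes shared. The rule names no order of birds within an age, but its separation and fold conditions can favour genes in which a younger bird is low. Over all 10825 genes, replicate 3 was the highest bird of its age in 45.7% at 12 weeks and 43.7% at 35 weeks. How far the choice of genes shapes the order was not tested. Relative to each gene's mean over the 9 libraries, the median value of the 192 genes was 0.777, 0.876 and 0.628 in 12-week replicates 1 to 3, 0.882, 0.778 and 0.649 in 35-week replicates 1 to 3, and 1.43, 1.44 and 1.41 in the 66-week birds. The old birds were alike in this median, and the lowest values came from replicate 3 of both younger ages. The separation condition limits low values in the old birds. Gene by gene, the highest 66-week bird was at a median of 1.34 times the lowest, against 1.35 over all 10825 genes.

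At 35 weeks, replicate 1 was the highest bird of its age in 124 of the 192 genes (64.6%), against 33.3% of all 10825 genes. Replicate 3 was the lowest in 130 (67.7%), against 33.3% of all genes. At 12 weeks, replicate 3 was the lowest in 110 (57.3%), against 34.0% of all genes, and replicate 2 was the highest in 99 (51.6%), against 28.2%. Both replicates 3 were the lowest of their age in 84 genes (43.8%), against 17.9% of all genes. At 66 weeks replicates 1, 2 and 3 were the highest in 67, 64 and 61 of the 192 genes. In the 44 of them at 100 FPKM or more the order was less even: replicate 1 was the highest in 47.7%, against 22.8% of all genes at that level, and replicate 3 in 18.2%, against 38.1%.

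The 84 genes with both replicates 3 lowest had a median ratio of 1.82 and a median gap of 1.14, against 1.74 and 1.26 in the other 108. Of the 6 younger birds, 35-week replicate 1 was the nearest to the 66-week level in 68 genes and 12-week replicate 2 in 55. The farthest was 12-week replicate 3 in 70 genes and 35-week replicate 3 in 62. The genes share libraries and are not replicates of one another, so these counts are given without a test.

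The genes lowest at 66 weeks showed the opposite order. Among these 199, chosen by the mirror rule, 12-week replicate 3 was the highest bird of its age in 84.9% and 35-week replicate 3 in 83.9%. 35-week replicate 1 was the lowest in 71.4%. In most genes of both groups, 35-week replicate 1 lay nearest to the 66-week level among the birds of its age and replicate 3 farthest from it. The mirror rule turns the same conditions round, so it can favour the opposite order by construction. How much of this order comes from the choice was not tested.

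**Figure D5:**
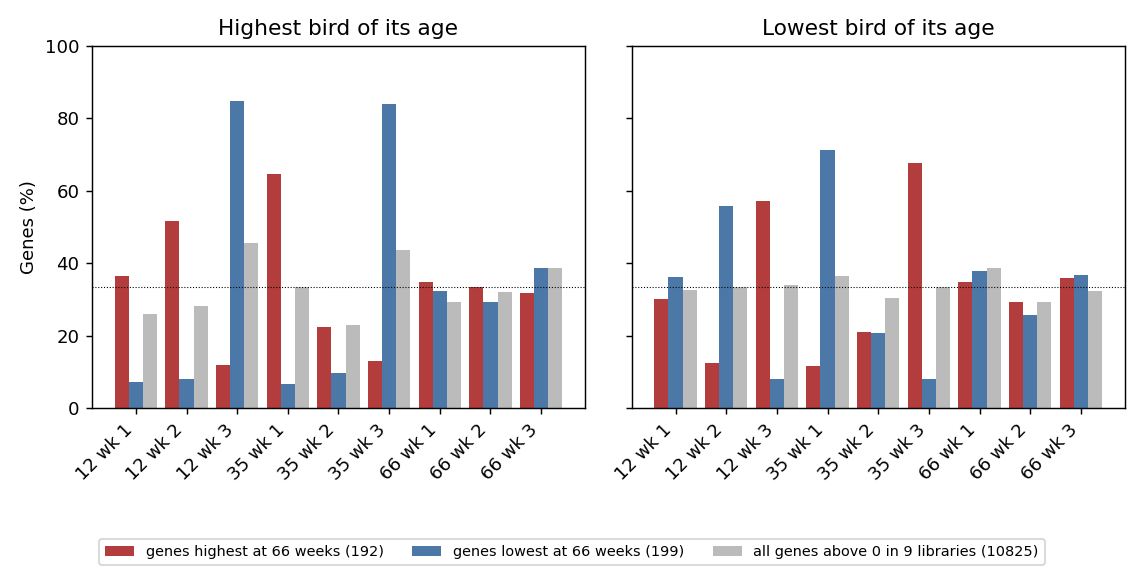
Share of genes, in percent, for which each bird was the highest (left) or the lowest (right) of the 3 birds of its age, in the genes highest at 66 weeks, the genes lowest at 66 weeks and all genes above 0 in 9 libraries with a mean of at least 1 FPKM; the dotted line marks equal shares. Replicate 3 is the lowest in 57.3% and 67.7% of the genes highest at 66 weeks at 12 and 35 weeks, and in these genes no 66-week bird passes 35.9% on either side.

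The order of the birds partly followed the summed FPKM of their libraries. At 35 weeks both fell in the order of replicates 1, 2 and 3, and at 12 weeks both were highest in replicate 2 and lowest in replicate 3. At 66 weeks replicate 3 had the highest sum and the lowest median of the 192 genes relative to their own means. The median of the 151 highest genes followed the same order at 12 weeks, at 1522, 1566 and 1460.1 FPKM in replicates 1, 2 and 3. It did not at 35 weeks, at 1850, 1652 and 1886 FPKM. The order was also present in the 148 genes under 100 FPKM, where 35-week replicate 3 was the lowest in 72.3% and 12-week replicate 3 in 56.8%. The part of the library sums in this order was not tested.

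The 192 genes also deviated together within ages. After each gene's log2 values were centred on the mean of each age, Pearson's r between genes over the 9 libraries had a median of 0.235 over the 18336 pairs, against 0.0132 over the pairs of all 10825 genes. It was 0.608 among the genes lowest at 66 weeks. A single pattern, the first component of these deviations, held 52.0% of the scatter, where the first component over all 10825 genes held 46.5% and that over the genes lowest at 66 weeks 68.3%. Its weights were 0.58 for 12-week replicate 3, 0.52 for 35-week replicate 3 and -0.46 for 35-week replicate 1, and 0.07 or less in size for the 66-week birds. Over all 10825 genes the largest weight was likewise that of 12-week replicate 3, at 0.72, and 35-week replicates 3 and 1 had 0.26 and -0.34. All these genes are read from the same libraries, and the conditions of the rule can favour a shared pattern, so this is a description of 9 birds.

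The median spread among birds of 1 age was smallest at 66 weeks. The median coefficient of variation over the 192 genes was 25.9%, 22.4% and 15.2% at 12, 35 and 66 weeks, where all 10825 genes had 20.4%, 15.8% and 15.7%. The separation condition acts on these spreads, so no more is read from them. At 12 weeks, replicate 3 was at or below 0.5 times the mean of the other 12-week birds in 28 of the 192 genes (14.6%), against 8.87% of all genes. By level, it held for 3 of the 54 of these genes at 1 to 10 FPKM (5.56%), against 10.2% of all genes there. At 10 to 100 FPKM it held for 14 of 94 (14.9%), against 7.13%, and at 100 to 1000 FPKM for 6 of 28 (21.4%), against 14.2%. At 1000 FPKM or more it held for 5 of 16 (31.2%), against 15.9%. The shares of the lowest and the highest class rest on few genes. Without that library 165 genes met the rule, of which 129 were among the 192. Over the 192 genes the median ratio was then 1.66.

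A fit across all 11491 genes at a mean of 1 FPKM or more gave the size of the differences with their error. The fit used limma on log2(FPKM + 1), with p-values adjusted by the Benjamini-Hochberg method over all genes and a threshold of 0.05. The median log2 fold change of the 192 genes was 0.88 for 66 against 35 weeks and 0.84 for 66 against 12 weeks, with a median SE of 0.26. ENSAPLG00000007849 had log2 fold changes of 2.99 ± 0.56 and 2.98 ± 0.56 (SE), and ENSAPLG00000013930 had 1.75 ± 0.54 and 1.67 ± 0.54 (SE). For 66 against 35 weeks, 34 of the 192 were called higher, where 1.13% of all genes were called higher and 3.52% in either direction. For 66 against 12 weeks, 7 of the 192 were called higher, where 0.278% of all genes were, and 0.366% in either direction. The rule chose the genes on these same contrasts, so nothing is read from these counts.

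Between 35 and 12 weeks limma called 0 of the 192, and 1 had an unadjusted p under 0.05. Of all genes, 2 were called (0.0174%), and 1400 had such an unadjusted p. The closeness condition had kept genes with near-equal means at these ages, so nothing is read from this count either. The 34 calls against 35 weeks became 20, 32 and 89 when 12-week replicates 1, 2 or 3 were left out. They became 0, 0 and 2 when 35-week replicates 1, 2 or 3 were left out, and 2, 1 and 1 for 66-week replicates 1, 2 or 3. Over all genes, the 404 calls in this contrast became 229, 460 and 1510 without 12-week replicates 1, 2 or 3. Those calls became 2, 7 and 16 without 35-week replicates 1, 2 or 3, and 45, 16 and 8 without 66-week replicates 1, 2 or 3. The 7 calls against 12 weeks became 0, 1 and 2 when 12-week replicates 1, 2 or 3 were left out. They became 0, 0 and 5 without 35-week replicates 1, 2 or 3, and 0 without any 1 of the 66-week libraries. The 42 calls over all genes in that contrast became 4, 7 and 14 without 12-week replicates 1, 2 or 3. They became 1, 5 and 16 without 35-week replicates 1, 2 or 3, and 6, 6 and 4 without 66-week replicates 1, 2 or 3.

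A smaller number of the 192 genes still met the rule whichever library was left out and under each scaling tried. Leaving out a library cannot undo the separation of the birds, so it bears only on the other conditions. Without each of the 9 libraries in turn, 45 genes met the rule every time, and 32 of them also met it under both scalings and with medians in place of means. Without a 12-week or 35-week library, the means of these ages moved too far apart in 27 to 45 of the 192 genes, and the ratio fell below 1.5 in 4 to 35. The losses by the ratio were most frequent without 12-week replicate 3, in 35 genes, and 35-week replicate 3, in 28. The ratio fell to 1 or below in 0 genes in any of the 9 cases, which the separation condition fixes in advance. The 32 genes had ratios of 1.58 to 2.59 and levels of 2.67 to 260.3 FPKM. Their lowest 66-week value had a median of 1.33 times the highest of the 6 others, and was at 1.005 times in the gene with the narrowest gap. It reached 1.5 times in 5 of the 32, where 11 of the 20 genes with the largest ratio did so. None of the 32 was at 1000 FPKM or more, and 1 was among the 20 with the largest ratio.

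The 3 genes given next were chosen after their values were seen, and they are among the 5 of the 32 with the widest gaps. The second by ratio among them had 6.80, 5.57 and 3.81 FPKM at 12 weeks, 5.68, 5.47 and 5.19 FPKM at 35 weeks, and 15.9, 11.4 and 14.4 FPKM at 66 weeks. Another had 23.9, 24.7 and 29.3 FPKM at 12 weeks, 31.9, 29.2 and 29.0 FPKM at 35 weeks, and 59.7, 50.4 and 58.4 FPKM at 66 weeks. The highest by level had 167, 253 and 143 FPKM at 12 weeks, 157, 158 and 208 FPKM at 35 weeks, and 433, 382 and 442 FPKM at 66 weeks. In all 3 genes the old birds were above 1.5 times the highest younger bird, at 1.68, 1.58 and 1.51 times, and the younger birds overlapped.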

How the data were processed

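Expression was deposited as 1 FPKM value per gene and library, as named per the file headers. TopHat2 2.0.9, Cufflinks 2.1.1 and Cuffdiff are listed in the submitters' processing notes; no role, genome build, annotation or library scaling is given in the sources used here. Columns were matched to birds by their labels. The rule was applied to the values as deposited in Python 3.11.15 (pandas 2.3.3, numpy 2.4.6, plots with matplotlib 3.10.9). The 3 ages were fitted together with limma 3.58.1 in R 4.3.3, on log2(FPKM + 1) with an intensity trend, for 11491 genes, two-sided. The degrees of freedom were 6 (residual) and 2.03 (prior). The log2(FPKM + 1) scale understates the change of low genes. The fit was tested on simulated data in which genes varied independently, so that test does not bear on deviations shared between genes. No 2 libraries held identical values. The group of genes and the gene lists were chosen with earlier results of these data known. Identifiers could not be paired with names, so no gene list was matched. Genes were to be named by the largest ratio; with no names, the identifiers of the first 2 are printed, and others that are described were chosen by rank or after their values were seen. The birds are taken as separate animals from the design text.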

Additional observations from a re-analysis of the deposited data

How the results depend on the processing

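The cause of a change below was not tested unless it is given. The 192 genes became 406 with a 66-week mean at least 25% above both other ages, 57 with one at least 2 times as high, and 106 with the 12-week and 35-week means within 1.1-fold, all by the construction of the rule. Other conditions, scalings and summaries kept the count within 1.5 times. The rule gave 266 genes with these means within 1.5-fold, 200 with no minimum, 169 with a minimum mean of 5 FPKM and 201 with values of 0 allowed. Quantile normalization gave 175, size factors 173 and medians 155, of which 130, 166 and 116 were among the 192. Without 1 library the count was 165 to 306, the highest without 12-week replicate 2, of which 162 were among the 192. With fewer birds to separate, the separation condition is easier to meet by construction, so further genes can enter.

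For 66 against 35 weeks, limma called 34 of the 192 genes and 404 of all. These counts became 19 and 219 with no filter, 62 and 1156 with the 2 ages alone, and 0 to 89 and 2 to 1510 without 1 library. For 66 against 12 weeks the counts of 7 and 42 became 3 and 9 with quantile normalization, 0 and 7 with the 2 ages alone, and 0 to 5 and 1 to 16 without 1 library. In the limma fits, unlike for the rule, quantile normalization was made over all genes, values of 0 included. For 35 against 12 weeks, 0 of the 192 were called under any alternative, which the closeness condition of the rule all but fixes. The 2 of all genes went to 6 with no filter, 0 with a pseudocount of 0.1, 1 with quantile normalization and 9 with the 2 ages alone. Without 1 library they went to 0 to 459. The 459 came without 12-week replicate 3, and the next highest count, 8, without 12-week replicate 1. With the replicate number as a block, 13 of the 192 and 178 of all genes were called for 66 against 35 weeks, 0 and 1 for 66 against 12 weeks, and 0 and 0 for 35 against 12 weeks. The labels pair no birds by replicate number. Deviations of libraries with 1 number correlated at r of -0.0939 to 0.215 (9 pairs, 2 above 0.1). Both values above 0.1, 0.156 in replicate 1 and 0.215 in replicate 3, were between 35 and 12 weeks. Libraries with different numbers were not compared, so a link by number was not tested.

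The depth in reads is not given, so the precision of a low value cannot be given, and 54 of the 192 genes had a mean under 10 FPKM.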

Other observations

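The same rule applied to the other ages found fewer genes. It found 112 genes highest and 67 lowest at 35 weeks, and 15 highest and 68 lowest at 12 weeks, beside 192 highest and 199 lowest at 66 weeks. The rule needs all birds of an age to lie apart from the others, and the spread among birds differed between ages. Over the 10825 genes the median coefficient of variation was 20.4%, 15.8% and 15.7% at 12, 35 and 66 weeks. The differences between these counts, and the part of the spread in them, were not tested.

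Genes listed at 0 in some libraries could not enter the group. A listed 0 need not be an absent transcript. With 0 allowed, 9 further genes met the other conditions. In 2 of these all 6 younger birds were listed at 0, with 62.2 to 119 FPKM in the 66-week birds in one gene and 1.85 to 4.29 FPKM in the other. The highest of the 9 had 3016 to 4829 FPKM in the 66-week birds and at most 1690 FPKM in the younger birds, of which 1 was listed at 0.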
